A study of Mus musculus with 12 samples.

Results

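The genes described here are 10 markers of T cells and natural killer (NK) cells, out of 24187 genes counted in 12 mouse livers. They were taken as a list of symbols (Cd3e, Cd3d, Cd3g, Cd4, Cd8a, Nkg7, Gzma, Gzmb, Klrb1c and Ncr1) and matched to Ensembl gene identifiers, and each symbol matched exactly 1 gene in the counts. The livers came from mice aged 10 to 12 weeks, named C57BL/6J in the labels and C57BL6/JOlaHsd in the description of the APAP experiments, and RNA from whole frozen liver was sequenced after removal of ribosomal RNA. Control mice (n = 3) were untreated. The other 9 mice received 350 mg/kg acetaminophen (APAP, also called paracetamol), which injures hepatocytes around the central veins, and are called APAP-injured below. Of these, 5 were given vehicle, phosphate-buffered saline, and 4 were given hAAMs, human alternatively activated macrophages grown from blood monocytes, which the methods describe as injected 16 h after APAP. The dose given here is the one recorded for these samples. The paper shows its RNA sequencing in a figure on a severe model, in which a higher APAP dose is named, and that difference was not resolved. The comparisons ask how the liver's lymphocyte transcripts stood after injury, and whether they stood differently after the human cells. The hosts were immunocompetent mice with T cells and NK cells of their own, and the sex of each mouse was not given in the labels.

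CD3 chains carry the signal of every T cell receptor into the cell. CD4 and CD8 are the co-receptors that separate helper from cytotoxic T cells, and granzymes are the proteases that cytotoxic T cells and NK cells deliver into a target. The liver holds many NK cells, NKT cells and resident T cells in its sinusoids, where NK cells carry receptors such as NK1.1 and NKp46.

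Libraries held between 47391650 and 74056505 counts, and control libraries were scaled by trimmed mean of M-values (TMM) factors of 0.832 to 0.859 against 0.933 to 1.14 in injured livers. Levels below are CPM, counts relative to the library total after that scaling. The library of vehicle-treated liver 3 and that of hAAM-treated liver 4 were unusually alike: the spread of their counts was 1.41 times that of counting alone, while in the other 35 pairings of injured livers it was 4.82 to 18.3 times. Whether these 2 libraries share a liver or material was not tested, and without both, the Cd4 calls stood and no gene was called between hAAM-treated and vehicle-treated livers (1530 genes at an unadjusted p under 0.05, edgeR). Vehicle-treated liver 5 carried 94.7 CPM of B cell and plasma cell transcripts and 2025 CPM of red cell transcripts. Of 5 red cell genes, the 4 globins were called higher in injured than in control livers (log2 fold changes 2.35 to 2.39) and Alas2 lower (-1.47). In that comparison, 31.2% of all genes were called. In hAAM-treated against control livers, 0 of the 5 were called higher, with a median log2 fold change of 2.21. The list summed to 135 to 240 CPM in control and 220 to 2025 CPM in injured livers. Hepatocyte markers such as Alb summed to 54190 CPM or more in every liver.

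The 10 markers were scarce. Together they drew 115 to 265 counts per liver. Per kilobase of exon, Nkg7 had the highest mean level over all livers (0.275 CPM per kb), followed by Cd4 (0.259), Gzma (0.233) and Gzmb (0.126). The remaining 6 genes lay between 0.0625 (Cd8a) and 0.0872 CPM per kb (Klrb1c). With counts this low, a single liver's value carries wide counting error, and 9 of the 10 genes passed the low-count filter used for testing. Ncr1 was the gene that did not.

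The promoters of these genes are shown for the divergent Cd3d and Cd3g pair and for the granule proteases, whose windows share a short motif that the CD3 windows lack. RefSeq (GRCm38.p6) start sites matched 9 of the 10 genes, all but Cd4. Below, each sequence is the 250 bases before the annotated start, 5′ to 3′ on the gene's own strand, and capitals mark matches to the searched motifs.
Cd3d, chr9:44981536-44981785, plus strand: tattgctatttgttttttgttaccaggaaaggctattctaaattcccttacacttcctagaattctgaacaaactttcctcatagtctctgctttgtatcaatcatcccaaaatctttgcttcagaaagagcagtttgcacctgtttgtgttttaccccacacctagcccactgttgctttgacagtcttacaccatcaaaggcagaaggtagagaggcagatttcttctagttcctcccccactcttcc
Cd3g, chr9:44980432-44980681, minus strand: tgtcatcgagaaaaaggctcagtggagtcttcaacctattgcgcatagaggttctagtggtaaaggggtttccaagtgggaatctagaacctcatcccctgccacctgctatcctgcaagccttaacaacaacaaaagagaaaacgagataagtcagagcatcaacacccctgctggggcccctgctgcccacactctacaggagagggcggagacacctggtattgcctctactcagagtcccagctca
Gzma, chr13:113100982-113101231, minus strand: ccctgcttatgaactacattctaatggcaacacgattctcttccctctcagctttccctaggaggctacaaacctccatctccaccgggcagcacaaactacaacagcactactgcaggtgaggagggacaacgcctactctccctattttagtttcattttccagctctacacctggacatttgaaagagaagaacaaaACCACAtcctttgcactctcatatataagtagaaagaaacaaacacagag
Gzmb, chr14:56262335-56262584, minus strand: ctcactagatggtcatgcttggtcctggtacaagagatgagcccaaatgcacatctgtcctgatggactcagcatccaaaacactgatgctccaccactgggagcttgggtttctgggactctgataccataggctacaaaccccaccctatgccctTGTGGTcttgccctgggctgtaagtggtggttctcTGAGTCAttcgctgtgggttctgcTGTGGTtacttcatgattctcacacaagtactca
The RUNX motif, TGTGGT or its complement ACCACA, stood in the windows of Gzma, Gzmb, Nkg7, Klrb1c and Ncr1, which are all 5 granule and NK receptor genes. It stood in none of the windows of Cd3e, Cd3d, Cd3g and Cd8a. Of 32536 mouse promoters searched on both strands, 14.0% held it. In Gzmb, 1 of the capital runs (TGAGTCA) is an AP-1 match (TGANTCA, held by 6.7% of promoters). A T-box match (AGGTGTGA, 1.1% of promoters) was found in Nkg7, and an ETS match (CAGGAAG, 10.8%) in Cd3e and Nkg7. No window held the CRE motif TGACGTCA (1.6%) or a TATAAA box (12.3%). These matches describe letters in the windows and not binding sites.

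The CD3 chains are encoded side by side on chromosome 9 of GRCm38. Cd3g (chr9:44969572-44980431, minus strand) and Cd3d (chr9:44981786-44987339, plus strand) start 1355 bases apart and point away from each other, and Cd3e (chr9:44998740-45009627, minus strand) ends 11401 bases further on. Cd3e, the epsilon chain, had 13, 23 and 15 counts in control livers 1 to 3, 14, 13, 17, 10 and 17 in vehicle-treated livers 1 to 5, and 5, 4, 28 and 19 in hAAM-treated livers 1 to 4. The control and vehicle-treated livers lay close together, and the hAAM-treated livers held both the lowest and the highest values, so all groups overlapped. Cd3g, the gamma chain, had 10, 18 and 10 counts in control, 7, 17, 16, 6 and 15 in vehicle-treated and 7, 4, 25 and 15 in hAAM-treated livers. It had the same extremes as Cd3e, lowest in hAAM-treated liver 2 and highest in liver 3. Cd3d, the delta chain, had 4, 12 and 7 counts in control, 8, 4, 12, 7 and 14 in vehicle-treated and 7, 5, 4 and 13 in hAAM-treated livers. The delta chain did not share the high value of hAAM-treated liver 3, where it had 4 counts against 25 and 28 for its neighbours.

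No CD3 chain passed the test in any comparison. Between vehicle-treated and control livers, the log2 fold change was -0.35 ± 0.51 for Cd3e (SE), 0.13 ± 0.48 for Cd3d and -0.14 ± 0.55 for Cd3g. These 95% intervals ran from -1.47 to 1.17 across the 3 genes, so changes within the interval of each gene were not excluded. Summed, the CD3 chains stood at 0.660 ± 0.161 CPM in control (SD, n = 3), 0.597 ± 0.199 in vehicle-treated (n = 5) and 0.645 ± 0.412 CPM in hAAM-treated livers (n = 4). The group means differed by less than the spread within any group. Cd3e overlaps an antisense gene, Gm48719, by 135 exonic bases. That neighbour had no place in the counts, and the strand setting of the counting was not given in the sources used here.

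**Figure D1:**
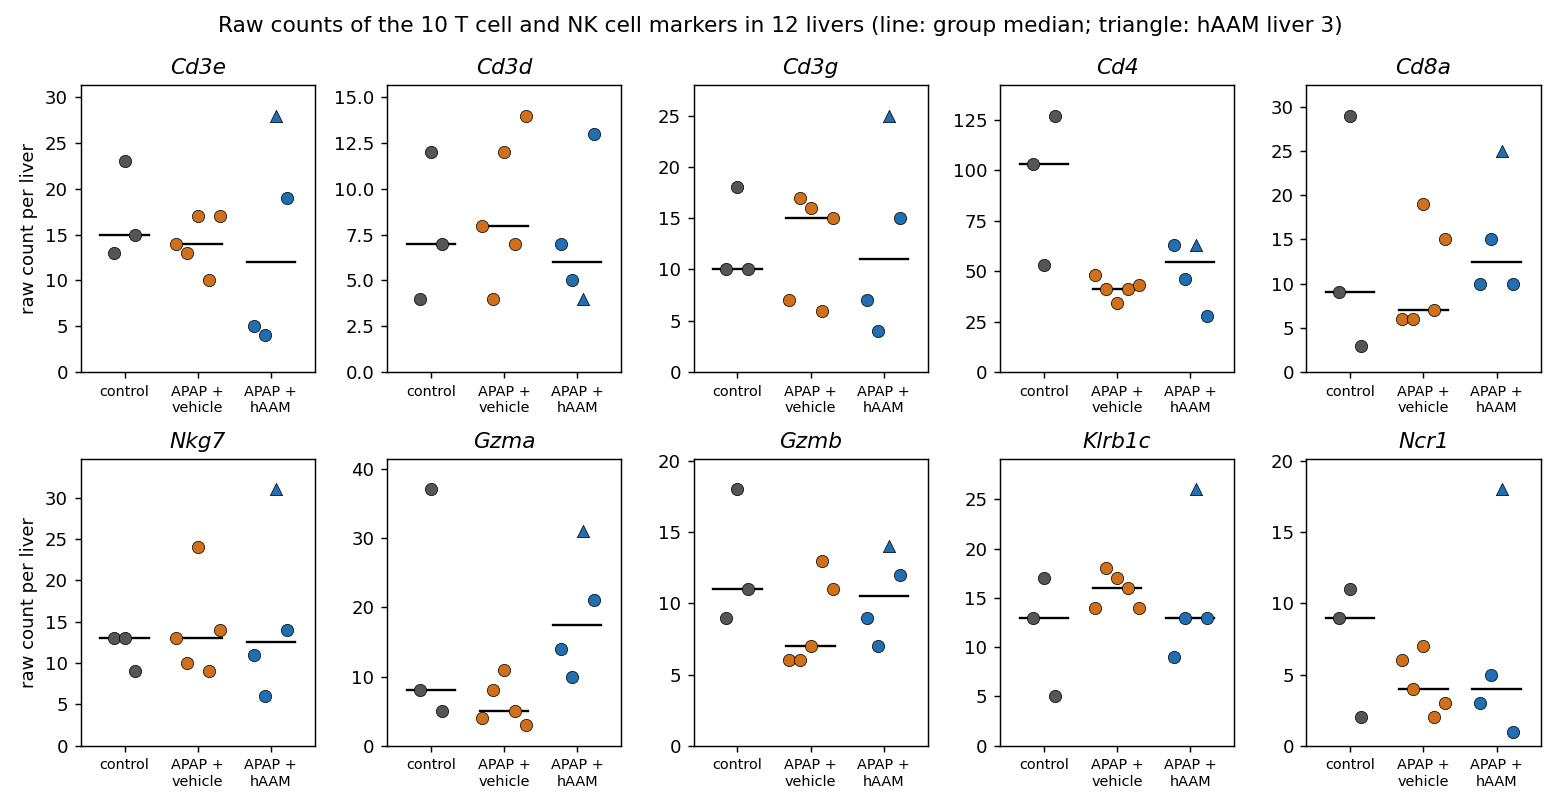
Raw counts (y axis, own scale per gene) of each of the 10 markers in control, APAP and vehicle, and APAP and hAAM livers (x axis); each point is 1 liver, the line is the group median and the triangle is hAAM-treated liver 3. Cd4 is the gene whose 5 vehicle-treated livers (34 to 48 counts) all lie below the 3 control livers (53 to 127), and the triangle is the top point of the hAAM group in 8 of the other panels, Cd3d being the exception.

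Cd4 was the marker that changed with injury. The helper T cell co-receptor (chr6:124864692-124888221, minus strand) had 103, 53 and 127 counts in control livers, 48, 41, 34, 41 and 43 in vehicle-treated livers and 63, 46, 63 and 28 in hAAM-treated livers. Every vehicle-treated liver was below every control liver. After scaling the gap was narrow, since vehicle-treated liver 1 stood at 0.826 CPM and control liver 2 at 0.834 CPM, and hAAM-treated livers overlapped both groups. Cd4 stood at 1.77 ± 0.855 CPM in control (SD, n = 3), 0.688 ± 0.0865 in vehicle-treated (n = 5) and 0.947 ± 0.328 CPM in hAAM-treated livers (n = 4). Cd4 fell in vehicle-treated livers, with a log2 fold change of -1.35 ± 0.33 (SE; FDR 0.00985, edgeR). It was the only 1 of 9 tested markers called in that comparison, in which 29.8% of all 22581 tested genes were called, 14.8% as lower. Ranges that did not overlap were found for 34.8% of all genes in either direction, and for 17.3% with the vehicle-treated livers lower.

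In all APAP-injured livers against control, Cd4 again was the single marker called (log2 fold change -1.12 ± 0.29, FDR 0.0124), where 31.2% of all genes were called, 15.6% as lower. In hAAM-treated livers against control, no marker was called against 20.7% of all genes, and the Cd4 log2 fold change was -0.89 ± 0.35 (unadjusted p = 0.0235, FDR 0.0862, edgeR). There, 1 of 9 markers had an unadjusted p under 0.05 with edgeR, as had 35.2% of all genes, and DESeq2 likewise called 0. The Cd4 call rested on the control livers. Without control liver 3 the vehicle comparison gave -1.02 (FDR 0.0609), and the comparison of all injured livers lost its call without control liver 1 (-1.04, FDR 0.0533) or control liver 3 (-0.78, FDR 0.106). Without control liver 2, the hAAM comparison was called too (-1.24, FDR 0.0178), while without control liver 3 it was -0.55 (FDR 0.343). In whole liver, fewer cells of a type and less RNA per cell cannot be told apart.

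CD4 is also made by some dendritic cells. Of the 7 dendritic cell markers tested, 1 was called in injured livers against control, where 31.2% of all genes were called. It was Xcr1, the receptor of cross-presenting dendritic cells, which fell by 1.08 on the log2 scale (FDR 0.0235, edgeR). The log2 fold changes of the 7 were above 0 for 3 and below 0 for 4, with a median of -0.13. In hAAM-treated against control livers, 0 of the 7 were called. The summed dendritic cell list ranged from 19.8 to 25.5 CPM in control livers and from 19.5 to 26.0 CPM in injured livers, and each of its 7 genes had at least 6 counts in every liver. The 6 Kupffer cell markers summed to 187 to 253 CPM in control and 211 to 346 CPM in injured livers. The part of these cells in the Cd4 result was not tested.

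Cd8a, the cytotoxic co-receptor (chr6:71373427-71379173, plus strand), varied as much within groups as between them. It had 9, 29 and 3 counts in control, 6, 6, 19, 7 and 15 in vehicle-treated and 10, 15, 25 and 10 in hAAM-treated livers. Control livers held the raw extremes, 3 and 29 counts, and all groups overlapped. Its within-group variance was 5.30 times that of counting alone. The log2 fold change was -0.41 ± 0.61 for vehicle-treated and 0.26 ± 0.62 for hAAM-treated against control livers, and neither passed the test. Unlike Cd4, Cd8a did not pass in any comparison, and the difference between the co-receptors was not tested.

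**Figure D2:**
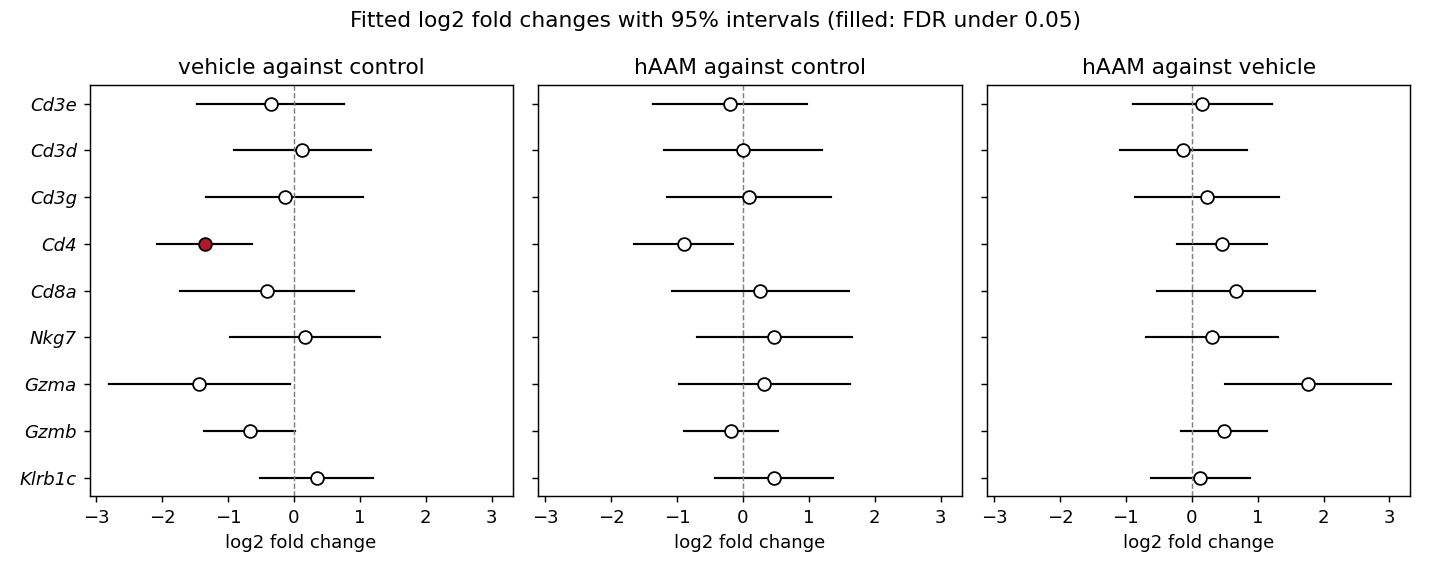
Log2 fold changes (x axis) of the 9 tested markers (y axis) in 3 comparisons; points are edgeR estimates, bars are 95% intervals and filled points have an FDR under 0.05. Cd4 in vehicle-treated against control livers is the filled point, and the Gzma interval in hAAM-treated against vehicle-treated livers (0.50 to 3.03) excludes 0 without passing the FDR.

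Among the granule genes, Gzma showed the widest differences between groups. Gzma encodes granzyme A, a tryptase of cytotoxic granules (chr13:113093825-113100981, minus strand), and had 8, 37 and 5 counts in control, 4, 8, 11, 5 and 3 in vehicle-treated and 14, 10, 31 and 21 in hAAM-treated livers. All 4 hAAM-treated livers were above the vehicle-treated median, 3 of them above every vehicle-treated liver, and control liver 2 had the highest count of all. In CPM, Gzma stood at 0.278 ± 0.265 in control (SD, n = 3), 0.108 ± 0.0684 in vehicle-treated (n = 5) and 0.361 ± 0.181 in hAAM-treated livers (n = 4). The log2 fold change between hAAM-treated and vehicle-treated livers was 1.76 ± 0.58 (SE; unadjusted p = 0.0102, FDR 0.966, edgeR). It did not pass, and leaving out hAAM-treated liver 3 gave 1.41 (FDR 1.00). Against control livers, vehicle-treated livers stood at -1.44 ± 0.63 (unadjusted p = 0.0416, FDR 0.105). This value rested on control liver 2, with its 37 counts, and was -0.27 (FDR 0.802) without it.

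No marker was called between hAAM-treated and vehicle-treated livers, where 0.00% of all genes were called by edgeR. Of all genes, 1133 (5.02%) had an unadjusted p under 0.05 there, as did 1 of the 9 tested markers, Gzma. DESeq2 called 1 gene in all, and no marker. The FDR of Gzma in this comparison ranged from 0.427 without vehicle-treated liver 3 to 1.00 over the other alternatives.

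Gzmb encodes granzyme B, the granule protease that cuts after aspartate (chr14:56258838-56262260, minus strand). It had 9, 18 and 11 counts in control, 6, 6, 7, 13 and 11 in vehicle-treated and 9, 7, 14 and 12 in hAAM-treated livers. The groups overlapped, and Gzmb was the steadiest marker, with a within-group variance of 0.807 times counting noise. Its log2 fold change in vehicle-treated against control livers was -0.67 ± 0.32 (unadjusted p = 0.0567, FDR 0.131). Nkg7, a membrane protein of cytotoxic granules (chr7:43437073-43438249, plus strand), had 13, 13 and 9 counts in control, 13, 10, 24, 9 and 14 in vehicle-treated and 11, 6, 31 and 14 in hAAM-treated livers. Vehicle-treated liver 3 and hAAM-treated liver 3 stood above all other livers, and the groups otherwise overlapped. Its log2 fold changes were 0.17 in vehicle-treated and 0.48 in hAAM-treated against control livers, and did not pass. With 1 liver left out they went as low as -0.19 and -0.12.

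The NK receptors gave no call either. Klrb1c encodes NK1.1 (chr6:128778485-128789215, minus strand), the receptor by which NK and NKT cells are recognised in C57BL/6 mice, and had 13, 17 and 5 counts in control, 14, 18, 17, 16 and 14 in vehicle-treated and 9, 13, 26 and 13 in hAAM-treated livers. The vehicle-treated livers were tightly grouped, within the wider range of the other groups. The log2 fold change was 0.34 ± 0.39 for vehicle-treated and 0.47 ± 0.41 for hAAM-treated against control livers. Without control liver 3 the first was 0.03, and without hAAM-treated liver 3 the second was 0.07. Klrb1c shares 413 exonic bases on the same strand with Gm44511, so its counts are uncertain to that extent. Ncr1 encodes NKp46 (chr7:4337724-4345164, plus strand), an activating NK receptor, and had 9, 11 and 2 counts in control, 6, 4, 7, 2 and 3 in vehicle-treated and 3, 5, 18 and 1 in hAAM-treated livers. Of all its 71 counts, 18 came from hAAM-treated liver 3. Fitted without the low-count filter, it was not called in any of the 4 comparisons.

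**Figure D3:**
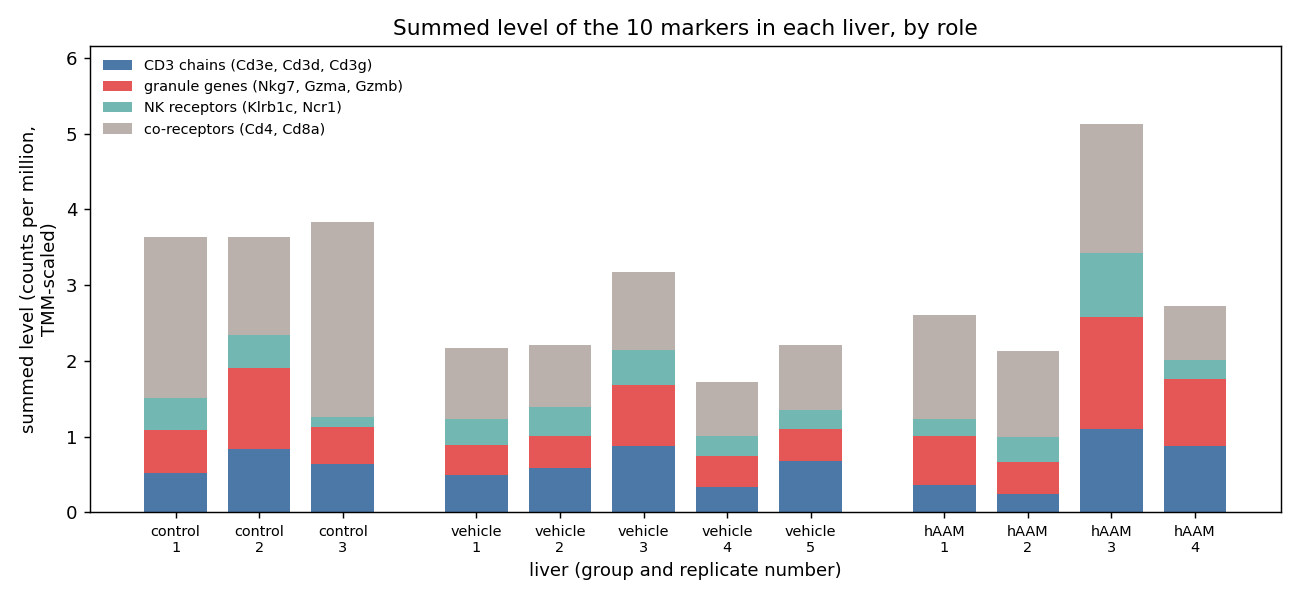
Summed level of the 10 markers (y axis, CPM after TMM scaling) in each of the 12 livers (x axis), stacked by role. The co-receptor block, mostly Cd4, is 1.29 to 2.57 CPM in control livers and 0.709 to 1.70 CPM in injured livers, and hAAM-treated liver 3 has the tallest bar, 5.13 CPM.

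The same liver stood high for markers of different roles. By CPM, hAAM-treated liver 3 was the highest of 12 livers for 7 of the 10 markers (Cd3e, Cd3g, Cd8a, Nkg7, Gzma, Klrb1c and Ncr1). Without Cd4, the other 9 markers summed to 3.91 CPM there, against 1.28 to 2.20 CPM in the remaining hAAM-treated livers, 1.11 to 2.52 CPM in vehicle-treated and 1.32 to 2.80 CPM in control livers. All 10 markers summed to 3.63 to 3.83 CPM in control, 1.715 to 3.175 CPM in vehicle-treated and 2.13 to 5.13 CPM in hAAM-treated livers. With Cd4 included, only the control and vehicle-treated livers were apart. For the 9 markers without Cd4, all 3 groups overlapped. Vehicle-treated liver 3 and hAAM-treated liver 4, the libraries that were alike over all genes, had summed levels of 2.52 and 2.20 CPM for these 9 markers. They had 11 and 21 counts of Gzma and 7 and 1 counts of Ncr1. Vehicle-treated liver 5, with its many immunoglobulin counts, was not high for T cell or NK cell markers and stood at 1.57 CPM.

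Among APAP-injured livers, the level of the CD3 chains was related to the summed markers of some other cells. The 3 livers with the most CD3 (hAAM-treated liver 3 at 1.10, hAAM-treated liver 4 at 0.877 and vehicle-treated liver 3 at 0.871 CPM) had the lowest sums of 5 monocyte markers (Ly6c2, Ccr2, Chil3, Plac8 and Vcan), at 36.9, 41.3 and 44.7 CPM. The 3 with the least CD3 (hAAM-treated liver 2 at 0.241, vehicle-treated liver 4 at 0.340 and hAAM-treated liver 1 at 0.359 CPM) had the highest monocyte sums, at 96.3, 128 and 97.8 CPM. Over the 9 injured livers, Pearson's r between the log2 levels was -0.891 (exact permutation p = 0.00221, adjusted 0.00993) and Spearman's rho -0.933 (exact permutation p = 0.00075, adjusted 0.00262). Without the 2 livers farthest from the median monocyte level (hAAM-treated livers 3 and 4), r was -0.807. With the 2 alike libraries averaged as 1 liver, r was -0.877 (exact permutation p = 0.00603, n = 8).

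The CD3 level went the other way with 6 hepatocyte markers, for which r was 0.882 (exact permutation p = 0.00284, adjusted 0.00993) and rho 0.95 (exact permutation p = 0.000353, adjusted 0.00247). Without the 2 farthest livers, hAAM-treated 3 and 4 again, r was 0.80. For neutrophil markers r was -0.788 (exact permutation p = 0.0181, adjusted 0.0422) and rho -0.733 (exact permutation p = 0.0311, adjusted 0.0726). These are 3 of 7 lists compared and adjusted together, and the lists of B cell, dendritic cell, Kupffer cell and red cell markers gave r between -0.196 and 0.517, with unadjusted exact permutation p-values of 0.154 or more. The Kupffer cell value was not stable, since r went from -0.108 to -0.734 without its 2 farthest livers, hAAM-treated 3 and vehicle-treated 1. With levels centred on the mean of each injured group and livers permuted only inside their group, r was -0.918 for monocyte markers (exact permutation p = 0.00764, adjusted 0.0267) and 0.914 for hepatocyte markers (exact permutation p = 0.00347, adjusted 0.0243), and -0.801 for neutrophil markers (exact permutation p = 0.0354, adjusted 0.0827). The relation was noticed in these data before it was tested on them, and all levels share the libraries' scaling. The adjustment over the 7 lists does not cover that choice. How many of all genes follow these lists as closely was not counted, so whether the relation is particular to CD3 was not tested. Control livers, with 7.88 to 14.5 CPM of monocyte markers, had CD3 levels inside the injured range.

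**Figure D4:**
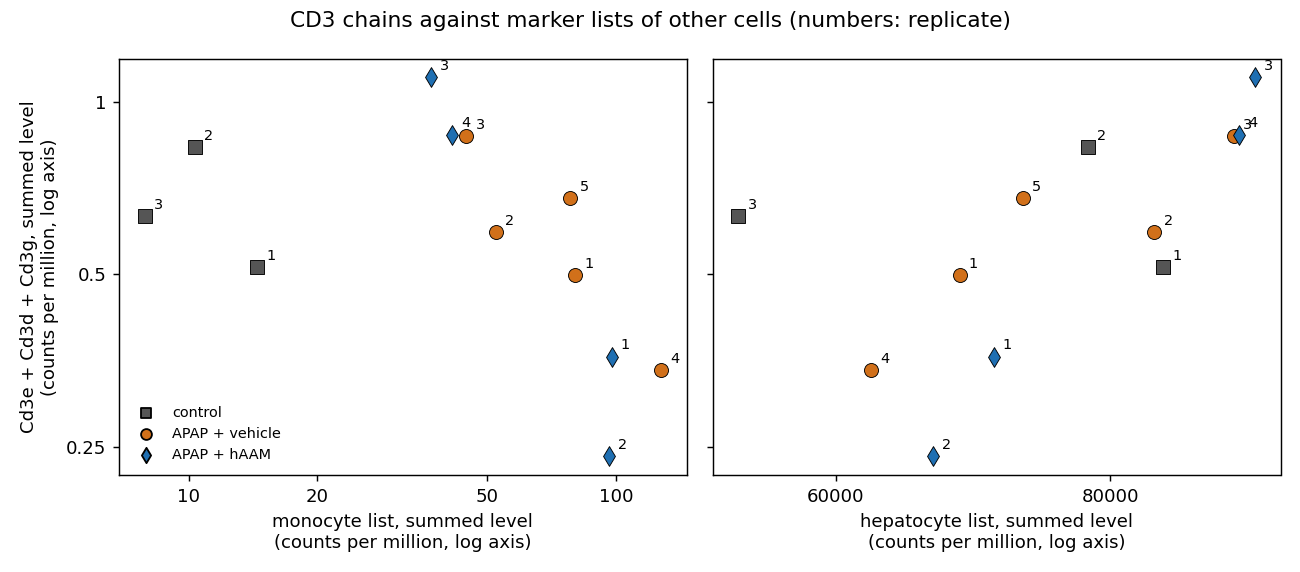
Summed level of Cd3e, Cd3d and Cd3g (y axis, CPM, log axis) against the summed monocyte list (left) and hepatocyte list (right; x axes, CPM, log axes); each point is 1 liver with its replicate number, squares are control, circles vehicle-treated and diamonds hAAM-treated. In the 9 injured livers CD3 runs from 1.10 to 0.241 CPM while the monocyte list runs from 36.9 to 128 CPM.

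Other genes of the T cell and NK cell pathways were read in the same fit, comparing all injured livers with control, where 15.6% of all tested genes were called higher and 15.6% lower (3525 and 3516 genes). That even split holds under TMM, and scaling by library size alone called 8842 genes higher and 1180 lower. Of 16 tested genes of the T cell receptor complex and its proximal signalling, 2 rose and 0 fell, with a median log2 fold change of 0.01 against 0.01 over all genes. Trdc, the constant region of the delta chain of gamma-delta T cell receptors (chr14:54142851-54148868, plus strand), rose by a log2 fold change of 2.40 ± 0.42 (SE; FDR 0.00172, edgeR). It had 1, 3 and 2 counts in control livers, 11, 7, 15, 12 and 12 in vehicle-treated and 15, 11, 7 and 11 in hAAM-treated livers. No control liver reached the minimum of 10 counts used by the low-count filter, so Trdc entered the test only through the injured livers. The size of its fold change rests on control values near the floor. Every injured liver was above every control liver, as were 11.2% of all tested genes. Pooled over livers, Trdc had 101 counts in injured against 6 in control livers, a rate ratio of 5.45 with an exact 95% interval of 2.42 to 15.2 that covers counting error only. Trbc1, the constant region of the beta chain of alpha-beta receptors, had a log2 fold change of -0.42 ± 0.25 (FDR 0.216). Ptprc, the pan-leukocyte phosphatase CD45, rose with a log2 fold change of 0.56 ± 0.19 (FDR 0.0411), from 25.2 ± 2.22 CPM (n = 3) to 37.1 ± 8.44 CPM (n = 9), a call lost in 8 of 12 fits that left out 1 liver, with FDR up to 0.151. The globin transcripts of blood cells rose in the same comparison, as did 3 of 5 monocyte markers, whose sum was 7.88 to 14.5 CPM in control and 36.9 to 128 CPM in injured livers. The part of these cells in the Ptprc, Trdc, Il7r and Srgn values was not tested. Trdc shares 96 exonic bases with the antisense gene Gm43434 and 207 with Trdv5.

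Of 12 tested T cell transcription factors and homing receptors, 1 rose and 2 fell, where 31.2% of all genes were called. Il7r, the interleukin 7 receptor of naive and memory T cells, which is also carried by innate lymphoid cells, rose with a log2 fold change of 2.55 ± 0.40 (FDR 0.000926), from 9 to 30 counts in control to 60 to 163 counts in injured livers. S1pr1, the lymphocyte egress receptor that endothelial cells also make, fell by 0.60 on the log2 scale (SE 0.07, FDR 0.000124). S1pr1 was above 10 CPM in every control liver, at 82.7 ± 2.57 CPM (SD, n = 3), far above the lymphocyte markers.

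Of 6 tested cytotoxic granule genes, 2 rose and 1 fell, against 31.2% of all genes called. Serpinb9, the inhibitor of granzyme B, rose with a log2 fold change of 0.58 ± 0.13 (FDR 0.00651), from 5.61 ± 1.27 CPM (SD, n = 3) to 8.32 ± 1.28 CPM (n = 9). Srgn, serglycin, the granule proteoglycan that many leukocytes make, rose with 1.32 ± 0.42 (FDR 0.0330), a call lost without any 1 of the 3 control livers or without hAAM-treated liver 1 (FDR up to 0.121). Lamp1, a lysosomal membrane protein of nearly all cells, fell by 0.26 (SE 0.09, FDR 0.0388), a change that stood at 0.06 under scaling by library size alone, where the median of all genes stood at 0.34, and whose call was lost in 10 of 12 fits that left out 1 liver (FDR up to 0.125).

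Of 24 listed NK receptors and regulators, 12 were tested and the others were not analysed here. Of those tested, 2 rose and 0 fell with edgeR, against 31.2% of all genes called. The 2 that rose were integrins that other liver cells also carry. Itga1, the collagen-binding chain used to mark resident NK cells, rose with a log2 fold change of 0.32 ± 0.08 (FDR 0.0101) from 59.3 ± 2.15 CPM (n = 3) to 74.3 ± 6.32 CPM (n = 9), and lost its call without control liver 3 (FDR 0.0537). Itga2, the chain known as CD49b that marks circulating NK cells, rose with 1.18 ± 0.30 (FDR 0.0114) and lost its call without control liver 2 (FDR 0.0533). Il18rap, a chain of the interleukin 18 receptor, had a log2 fold change of 1.35 ± 0.49 (FDR 0.0526, edgeR). It was called with DESeq2 (FDR 0.0150), with scaling by library size alone (FDR 0.0204) and in 5 of 12 edgeR fits that left out 1 liver, without control liver 1, vehicle-treated liver 2 or 3 or hAAM-treated liver 3 or 4 (FDR 0.0454 to 0.0486). Itga1 shares 685 exonic bases with Gm49395 on the same strand.

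Of 12 tested ligands and cytokines that act on T cells and NK cells, 2 rose and 3 fell, against 31.2% of all genes called. Raet1e and Ulbp1 encode stress ligands of the activating receptor NKG2D. Raet1e rose with a log2 fold change of 1.39 ± 0.32 (FDR 0.00655), from 48 to 109 counts in control livers to 137 to 345 counts in injured livers. It shares 133 exonic bases with H60b and 363 with Raet1d on the same strand, so its counts are uncertain. Ulbp1 rose with 1.58 ± 0.41 (FDR 0.0125), and lost its call without control liver 2 (FDR 0.0501) or control liver 3 (FDR 0.0639). Cxcl9, the interferon-induced chemokine that draws CXCR3-bearing T cells, fell by 2.94 on the log2 scale (SE 0.51, FDR 0.00170). Control liver 1 alone had 1798 counts of Cxcl9, and without it the value was -1.44 (FDR 0.0266).

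MHC class I genes, whose products present peptide to CD8 T cells and are read by NK cells, fell in 4 of 6 cases and rose in 0. Of all tested genes, 15.6% were called lower in this comparison. H2-K1 went from 817 ± 119 CPM (SD, n = 3) to 442 ± 68.1 CPM (n = 9), a log2 fold change of -0.88 ± 0.13 (FDR 0.000702). H2-D1 stood at -0.62 ± 0.09 (FDR 0.000778) and Tapbp, which helps load peptide, at -0.45 ± 0.08 (FDR 0.00143). All 6 class I genes were above 10 CPM in every control liver. Tapbp was no longer called when scaled by library size alone (-0.13, FDR 0.213), a scaling that moves the median of all genes to 0.34 in this comparison and gave -0.56 for H2-K1, -0.30 for H2-D1 and -0.28 for S1pr1, all still called. It shares 149 exonic bases with Zbtb22 on the same strand.

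**Figure D5:**
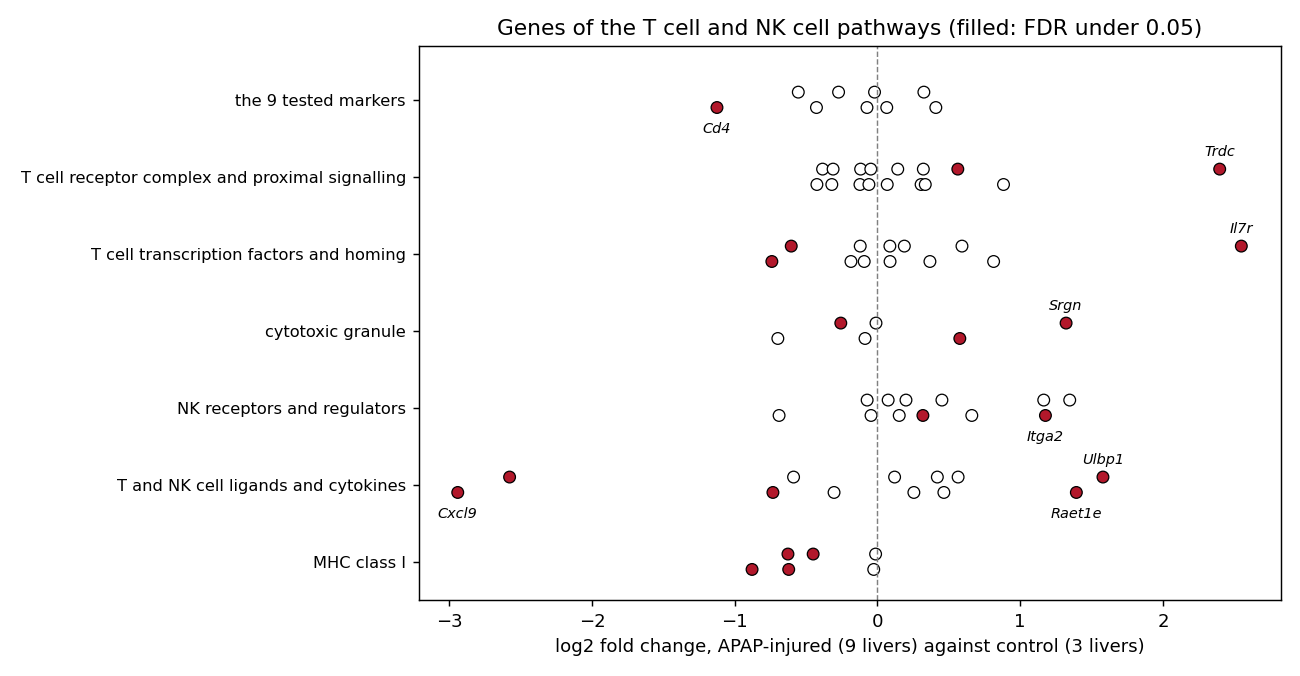
Log2 fold changes of APAP-injured against control livers (x axis) for the 9 tested markers and for 6 lists of T cell and NK cell pathway genes (y axis); each point is 1 gene and filled points have an FDR under 0.05. Trdc (2.40) and Il7r (2.55) are the rightmost points, Cxcl9 (-2.94) the leftmost, and Cd4 (-1.12) is the filled marker. Trdc passed the low-count filter only through the injured livers.

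The genes whose pattern over the 12 livers was most like the CD3 sum were Galnt15, Gimap3, Il2rb, Sult1a1 and BC024139, among 17710 genes compared. Their root mean square difference from the CD3 profile was 0.22 to 0.29 on the log2 scale, against a spread of 0.58 in the CD3 profile itself. For the sum of Klrb1c and Ncr1 they were Gm47486, Cyp39a1, Igf1os, Nrxn3 and Bdh2, at 0.26 to 0.33 against a spread of 0.56.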

How the data were processed

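RNA was extracted from frozen liver of 12 mice, and rRNA-depleted libraries were prepared with a strand-specific kit. The authors trimmed reads with cutadapt 4.6, aligned them to GRCm38 with STAR 2.7.1a and counted them with summarizeOverlaps. The deposited values are raw counts per Ensembl gene, not normalized, and the lowest total over livers was 15. The submitters' processing notes also name DESeq2 1.38.3.

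Gene symbols and coordinates came from a GENCODE annotation of GRCm38, which named 24128 of 24187 genes. Counts were filtered by group with filterByExpr, scaled by TMM and fitted over all 12 livers with edgeR 4.0.16 (quasi-likelihood, R 4.3.3), giving two-sided p-values with Benjamini-Hochberg FDR and a threshold of 0.05. Fold changes carry a prior count of 2. APAP-injured livers were the mean of the 2 treated groups in the same fit. The script was tested on simulated data. DESeq2 1.42.0, other scalings, filters, a replicate block and leaving out each liver were tried. Summed lists were correlated on log2 CPM.

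The markers and the gene lists were chosen with earlier results of these data known. All 10 markers are given, and from each T cell or NK cell list the 3 genes of smallest p in injured against control livers are named, except 1 gene that is not reported here. Intervals on counts cover counting error only. The labels give mice per group and no batch, and the 2 alike libraries, which may come from 1 liver or share material, were kept as separate livers in every n. The depth, 47391650 to 74056505 counts, leaves single values of 1 to 37 counts for all markers but Cd4.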

Additional observations from a re-analysis of the deposited data

Results flagged for a closer look

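Each of these values lay so far from the nearest liver of its group that it exceeded Dixon's 95% critical value, which chance exceeds in about 5% of groups. The groups of values examined overlap, since single markers and their sums share counts, so the number of such values is not set against that share. Nkg7, the granule membrane protein, stood at 0.465 CPM in vehicle-treated liver 3, and the summed granule genes (Nkg7, Gzma and Gzmb) at 0.813 CPM in the same liver, against 0.396 to 0.418 CPM in the other vehicle-treated livers. The summed NK receptors (Klrb1c and Ncr1) stood at 0.852 CPM in hAAM-treated liver 3, while the hAAM-treated median was 0.297 CPM. As a share of the group's range, the gap to the nearest liver was 0.8299 for the NK receptors (critical value 0.829). For Nkg7 it was 0.727 (critical value 0.71), so both only just exceeded the limit. Vehicle-treated liver 5 carried the remaining values, none of them from a T cell or NK cell marker. Its B cell and plasma cell list summed to 94.7 CPM against a vehicle-treated median of 8.36 CPM, the immunoglobulin genes within that list to 85.1 CPM against 4.51 CPM, and its red cell list to 2025 CPM against 437 CPM.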

How the results depend on the processing

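The markers' scarcity limits these results: most values rest on fewer than 40 counts, fold changes near 0 turned sign easily, and 3 control livers carry every comparison with injury. Of 694 log2 fold changes of markers under alternatives, 642 kept sign and side of the threshold, 3 lost and 1 gained the call (all Cd4), and 48 changed sign. The cause of these changes was not tested, apart from alternatives with fewer livers.

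Replicate numbers were shared across groups by name only: of 10 same-numbered pairs 3 had residual correlations over 0.1 (range -0.458 to 0.385). A fit with the replicate number as a block called 4253 genes in vehicle-treated against control livers (6719 without) and 2959 in hAAM-treated against control livers (4666 without). With the block, Cd3d stood at -0.16 in vehicle-treated, -0.15 in hAAM-treated and -0.16 in all injured livers against control and at 0.013 between hAAM-treated and vehicle-treated livers, and Cd8a at 0.00 (0.0016) in all injured livers. The block also ended the calls of Ptprc (FDR 0.0829), Srgn (0.0787) and Lamp1 (0.125) in all injured livers against control.

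In hAAM-treated against control livers, scaling by library size alone called 7340 genes, fitting only the compared groups 2729, and leaving out single livers 2419 to 5456. Between hAAM-treated and vehicle-treated livers, DESeq2 called 1 gene and single livers left out gave 0 to 1. All injured livers against control gave 4609 to 7800 genes over livers left out. Markers called ranged from 0 to 1 over livers left out in each of the 3 comparisons with control. Library size alone shifted the median of all genes to 0.36, 0.32 and 0.34 in vehicle-treated, hAAM-treated and all injured livers against control. It turned Cd3g to 0.19 in vehicle-treated livers, Cd3e to 0.061 and Gzmb to 0.10 in hAAM-treated livers, and Cd3e to 0.023, Cd3g to 0.27, Cd8a to 0.23 and Lamp1 to 0.063 in all injured livers. Without hAAM-treated liver 4 and vehicle-treated liver 3 together, Nkg7 stood at -0.18 in vehicle-treated against control livers.

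With single livers left out, log2 fold changes of vehicle-treated against control livers ranged from -0.49 to -0.20 for Cd3e, -0.14 to 0.47 for Cd3d, -0.32 to 0.075 for Cd3g, -0.84 to 0.60 for Cd8a, -0.19 to 0.33 for Nkg7, -1.82 to -0.27 for Gzma and 0.03 to 0.59 for Klrb1c. For hAAM-treated against control livers they ranged from -0.79 to 0.12 for Cd3e, -0.27 to 0.35 for Cd3d, -0.47 to 0.40 for Cd3g, -0.16 to 1.27 for Cd8a, -0.12 to 0.76 for Nkg7, -0.052 to 1.499 for Gzma, 0.07 to 0.72 for Klrb1c and -0.37 to 0.031 for Gzmb. For hAAM-treated against vehicle-treated livers they ranged from -0.44 to 0.47 for Cd3e, -0.30 to 0.062 for Cd3d, -0.33 to 0.54 for Cd3g, -0.29 to 0.67 for Nkg7 and -0.27 to 0.31 for Klrb1c. For all injured livers against control they ranged from -0.20 to 0.41 for Cd3d, -0.31 to 0.19 for Cd3g, -0.50 to 0.94 for Cd8a and -0.93 to 0.62 for Gzma. The correlations of the CD3 sum, tried under alternatives chosen after seeing the data, kept their sign and an unadjusted exact permutation p under 0.05 with other scaling, levels centred within groups, the alike libraries as 1 liver or any single liver left out, with r from -0.935 to -0.853 for monocyte and 0.803 to 0.919 for hepatocyte markers. Without the 2 farthest livers, r was -0.807 and 0.80, with no test.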

Other observations

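Markers of other leukocytes were read in the same comparison of injured with control livers, in which 31.2% of all tested genes were called, and no difference between lists was tested. Of 5 monocyte markers, 3 rose and 0 fell, with a median log2 fold change of 2.57, and the list summed to 7.88 to 14.5 CPM in control and 36.9 to 128 CPM in injured livers. The globin genes rose in the same comparison, and their part in these values was not tested. Of 6 neutrophil markers, 0 passed the test in edgeR, with sums of 7.09 to 29.2 CPM in control and 11.4 to 46.5 CPM in injured livers. Of 6 Kupffer cell markers, 1 rose, the scavenger receptor Marco (log2 fold change 1.58 ± 0.20, SE, FDR 0.000287). Of 9 tested B cell and plasma cell markers 0 passed, and their log2 fold changes ran from 0.02 (Jchain) to 0.85 (Ighm), with 9 of 9 above 0. That direction rested on vehicle-treated liver 5: without it, chosen after seeing the data, they ran from -0.89 (Jchain) to 0.54 (Ms4a1), with 4 of 9 below 0. In vehicle-treated against control livers, leaving it out moved the median of the 9 from 0.62 to -0.39, and 1 of them, Igkc, the kappa light chain constant region, was then called lower (log2 fold change -1.29).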
